A study of Macaca mulatta with 24 samples.

Results

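The transcription factors that bind cAMP response elements were followed across the layers of the lateral geniculate nucleus (LGN), the thalamic relay between retina and visual cortex, in infant rhesus macaques that grew up with 1 eye closed to pattern vision. The set holds 9 genes: CREB5, CREB1, CREB3, CREM, ATF1, ATF2 and ATF4, which bind DNA, and CREBBP and CRTC1, which act as their coactivators. The members were the probe sets that the annotation of the array platform maps to exactly 1 of these symbols, with no reference to their values. The 9 genes are among 14132 that the annotation names singly, and their probe sets number 25 of 52865 on the Rhesus Macaque Genome Array: 6 each for CREM and ATF1, 4 for CREB5, 2 each for CREB1, CREB3 and CREBBP, and 1 each for ATF2, ATF4 and CRTC1.

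RNA was measured in laser-captured cell layers of 4 LGNs, the left and right LGN of 2 animals, with 1 array for each of 6 layers and 24 arrays in all. The layers served by the deprived eye gave 8 deprived parvocellular and 4 deprived magnocellular arrays, and the layers served by the open eye gave 8 nondeprived parvocellular and 4 nondeprived magnocellular arrays. The magnocellular layers are 1 and 2, the parvocellular layers 3 to 6, and the koniocellular zones between them were left out. In both animals the left eye was deprived from birth, in 1 animal for 4 months by tarsorrhaphy (sutured lids) and in the other for 2 months with an opaque contact lens, so that duration, age, method and animal cannot be told apart. The nondeprived layers came from the same LGNs as the deprived ones, and no LGN of a normally reared animal was on these arrays. Each sample pooled sections of a whole layer, neurons and glia together, and fewer cells of a type and less RNA per cell cannot be told apart in it.

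CREB1, CREM and ATF1 form the core of the family. They are leucine-zipper proteins that sit on cAMP response elements and are switched on when protein kinase A, calcium-calmodulin kinases or ribosomal S6 kinases phosphorylate them. The phosphorylated form recruits CREBBP, a histone acetyltransferase also called CBP, and calcium entry in addition brings CRTC1 into the nucleus. In neurons this route carries synaptic activity to genes such as FOS and BDNF, and it has been studied in ocular dominance plasticity. CREB5 and ATF2 belong to a related branch that responds to stress kinases, ATF4 is produced when amino acids are scarce or proteins misfold, and CREB3 is anchored in the endoplasmic reticulum membrane until it is cleaved.

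Values are signal intensities in arbitrary units, which the authors scaled to the same trimmed mean on every array, and tests were made on log2 of the signal with the LGN as a block. Of the 25 member probe sets, 21 reached 100, the study's minimum, on at least 1 array and were tested among 37623 probe sets. The 4 that never reached it were 2 of CREB5 (MmugDNA.35128.1.S1_at and the only CREB5 probe set whose name ends in S1_x_at) and 2 of ATF1 (MmugDNA.33764.1.S1_s_at and MmunewRS.173.1.S1_at). The arrays correlated with one another at a mean Pearson r of 0.885 to 0.919 except 1 at 0.811, which was deprived layer 2 on the ipsilateral side in the 2-month animal. That array also had a GAPDH 3'/5' ratio of 50.8, where a high ratio is a sign of shortened RNA, against 14.3 for the next highest. For some probe sets the magnocellular and layer-class results are also given without it, and for the others they are not. The 4 neuron markers summed to 63883 or more on every array, and of the 3 relay-neuron markers PVALB and TCF7L2 were bright whereas SLC17A7 was below 100 throughout. Markers of GABAergic neurons, astrocytes, oligodendrocytes, microglia and vessels were also present in the captured tissue.

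Monocular deprivation was tested first in parvocellular layers and then in magnocellular layers. In parvocellular layers none of the 21 member probe sets passed an adjusted p of 0.05 in limma, where 0.970% of all probe sets tested did, and 4 members had an unadjusted p below 0.05, where 11.4% of all did. In magnocellular layers again 0 of 21 members passed in limma, as did 0.00% of all, and 0 members had an unadjusted p below 0.05, where 5.68% of all did. The median log2 fold change of the members, deprived over nondeprived, was -0.04 in parvocellular layers and 0.10 in magnocellular layers, and the medians over all probe sets tested were -0.01 and 0.13. The members ran to both sides, with 9 positive and 12 negative in parvocellular layers, and 12 positive and 9 negative in magnocellular layers.

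**Figure D1:**
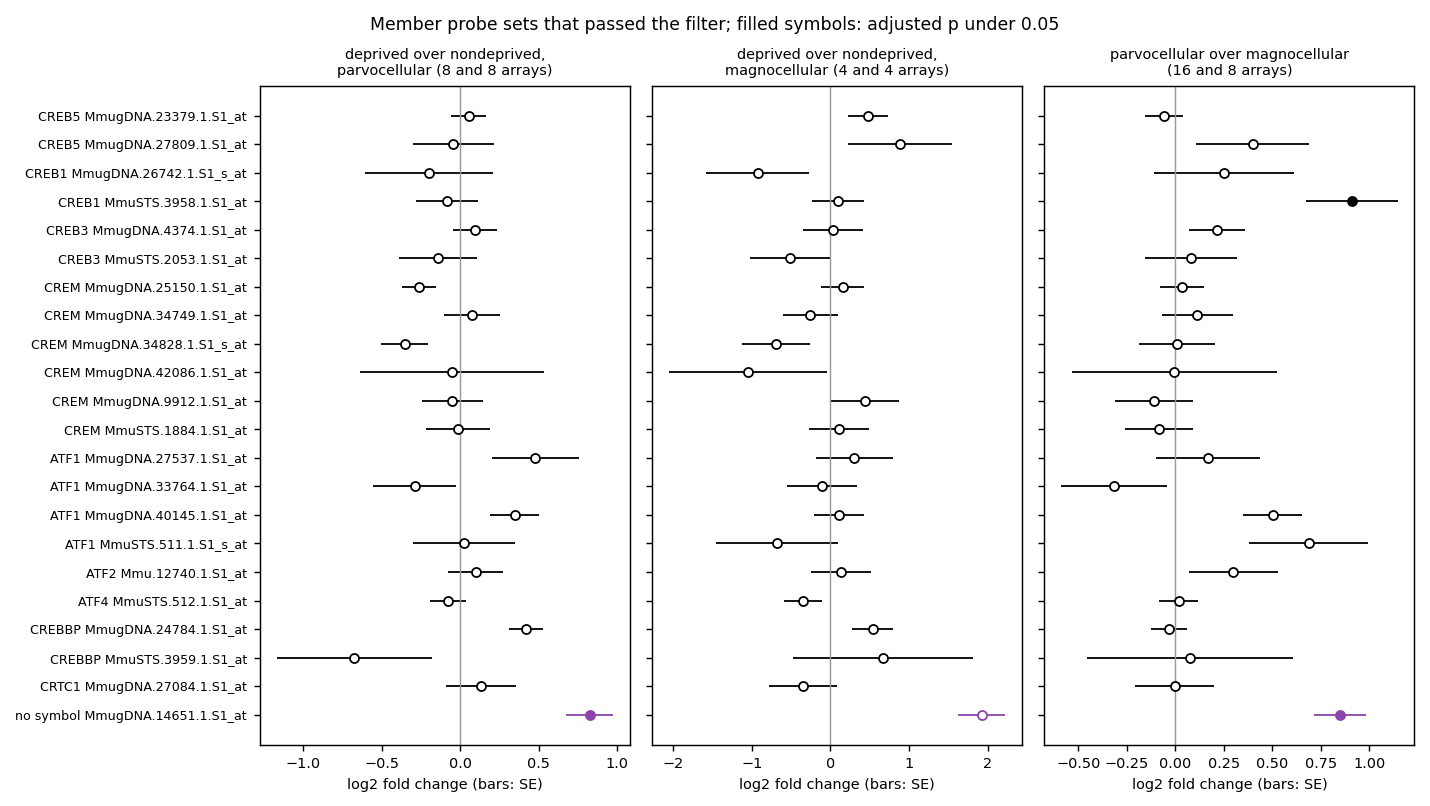
Log2 fold change with its SE for each member probe set that passed the filter, and for MmugDNA.14651.1.S1_at (bottom row), in deprived over nondeprived parvocellular layers, deprived over nondeprived magnocellular layers, and parvocellular over magnocellular layers; the 3 horizontal scales differ. Filled symbols passed an adjusted p of 0.05: no member in the deprivation panels, CREB1 MmuSTS.3958.1.S1_at at 0.91 in the layer-class panel, and MmugDNA.14651.1.S1_at at 0.82 and 0.85.

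The probe sets of CREB5 gave differing readings. MmugDNA.23379.1.S1_at was well detected, at 1209 to 2072 on all 24 arrays. Its signal was 1389 to 1925 with a median of 1645 in deprived parvocellular layers, against 1312 to 1956 with a median of 1540.5 in nondeprived parvocellular layers. These ranges overlapped almost completely, and limma gave a log2 difference of 0.05 with an SE of 0.11, a 95% interval of -0.16 to 0.27 and an adjusted p of 0.916. In magnocellular layers the same probe set had 1881, 1890.1, 2035 and 2072 in deprived layers, against 1209, 1344, 1357 and 1813 in nondeprived layers. The groups did not overlap, which was also so for 2.78% of all probe sets in this direction, and the log2 fold change of 0.48 (SE 0.26) did not pass (adjusted p = 0.836 in limma). By LGN the magnocellular difference was 0.60, 0.61 and 0.64 in 3 LGNs and 0.06 in the contralateral LGN at 2 months, all on the log2 scale, and without the array of the highest GAPDH ratio the fitted value was 0.43 (adjusted p = 0.842 in limma). The effect in parvocellular minus that in magnocellular layers, which had an unadjusted p below 0.05 for 1 member and for 6.75% of all probe sets, was -0.42 (SE 0.20, unadjusted p = 0.0416, adjusted p = 0.736 in limma).

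The second tested CREB5 probe set, MmugDNA.27809.1.S1_at, was dim, with 14 of 24 arrays at 100 or more. It had 43.8 to 188 with a median of 119 in deprived parvocellular layers, against 73.2 to 188 with a median of 112 in nondeprived parvocellular layers. In magnocellular layers it had 68, 94.1, 137 and 201 in deprived layers, against 17.7, 71.8, 74.6 and 161 in nondeprived layers. The groups overlapped in both layer classes, the log2 fold changes were -0.04 (SE 0.26) and 0.88 (SE 0.66), and the magnocellular one was positive in 2 of 4 LGNs. It was 3.51 in the ipsilateral LGN at 2 months, where the deprived value, 201, came from the array of the highest GAPDH ratio. In the other LGNs it was -0.23, -0.135 and 0.39, and no fit without that array is given for this probe set.

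The remaining CREB5 probe sets lay below 100 on every array and were not tested. The one whose name ends in S1_x_at had 0.986 to 36.6 with a median of 8.57 in deprived parvocellular layers, against 3.35 to 27.1 with a median of 11.3 in nondeprived ones. Its magnocellular values were 5.17, 10.5, 16.8 and 67.2 in deprived layers, against 16.6, 22.5, 33.2 and 36.1 in nondeprived layers, again with overlap. MmugDNA.35128.1.S1_at had 27.9 to 54.4 with a median of 45.2 in deprived parvocellular layers, against 14.5 to 38.7 with a median of 23.2 in nondeprived parvocellular layers. These ranges overlapped, though in pairs of neighbouring layers of the same LGN the deprived one was higher in 8 of 8 (mean fold 1.76). In magnocellular pairs it was higher in 2 of 4. Signals this low are under the study's minimum of 100, and no effect was read from them. In magnocellular layers it had 1.6, 16.9, 27.2 and 40.8 in deprived layers, against 14, 21.5, 31.6 and 77.6 in nondeprived layers.

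The study gives the name CREB5 to a further probe set, MmugDNA.14651.1.S1_at, to which the platform annotation used here assigns no symbol. It is therefore no member, and as the study drew it from these same arrays for its response to deprivation, its tests are not independent evidence of that response. The study lists it as upregulated in deprived magnocellular layers, and it also reports CREB5 as raised by qRT-PCR, which was not examined here. MmugDNA.14651.1.S1_at had 788 to 1471 with a median of 977 in deprived parvocellular layers, against 421 to 990.1 with a median of 537 in nondeprived parvocellular layers. All deprived parvocellular arrays lay above 7 of 8 nondeprived ones, and the overlap came from layer 5 of the contralateral LGN at 4 months. In magnocellular layers it had 682, 746, 799 and 1133 in deprived layers, against 170.2, 197, 253 and 263 in nondeprived layers, so that the lowest deprived layer stood well above the highest nondeprived one. In limma the log2 difference was 0.82 (SE 0.15) with an adjusted p of 0.0110 for parvocellular layers. For magnocellular layers it was 1.92 (SE 0.30) with an unadjusted p of 6.67e-05 and an adjusted p of 0.398, and in each class it was positive in 4 of 4 LGNs. The parvocellular minus the magnocellular effect was -1.10 (SE 0.27, adjusted p = 0.540 in limma). Its call in parvocellular layers was lost with median scaling (adjusted p = 0.135), without a trend in eBayes (0.0823), without the LGN block (0.0649), and in the animal at 4 months (0.450) or 2 months (0.196) alone. Its magnocellular effect passed in the animal at 4 months alone (2.04, adjusted p = 0.0121 in limma) and was 1.90 (adjusted p = 0.657) without the array of the highest GAPDH ratio.

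As the study picked MmugDNA.14651.1.S1_at from these arrays for its response, a larger effect for it was partly fixed in advance. Set side by side within LGNs, the deprivation effect of MmugDNA.14651.1.S1_at was larger than that of MmugDNA.23379.1.S1_at in 4 of 4 LGNs in parvocellular layers, by 0.66 to 0.84 on the log2 scale, and in 4 of 4 in magnocellular layers, by 1.29 to 1.56. Over the 24 arrays, after removing the mean of each LGN, the log2 signals of these 2 probe sets correlated at r = 0.57, those of MmugDNA.23379.1.S1_at and MmugDNA.27809.1.S1_at at r = 0.36, and those of MmugDNA.14651.1.S1_at and MmugDNA.27809.1.S1_at at r = 0.39. The arrays share animals and scaling, and these r values are descriptions. The probe sequences of the array were not among the sources used here, so the stretches of transcript that these probe sets read were not compared.

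**Figure D2:**
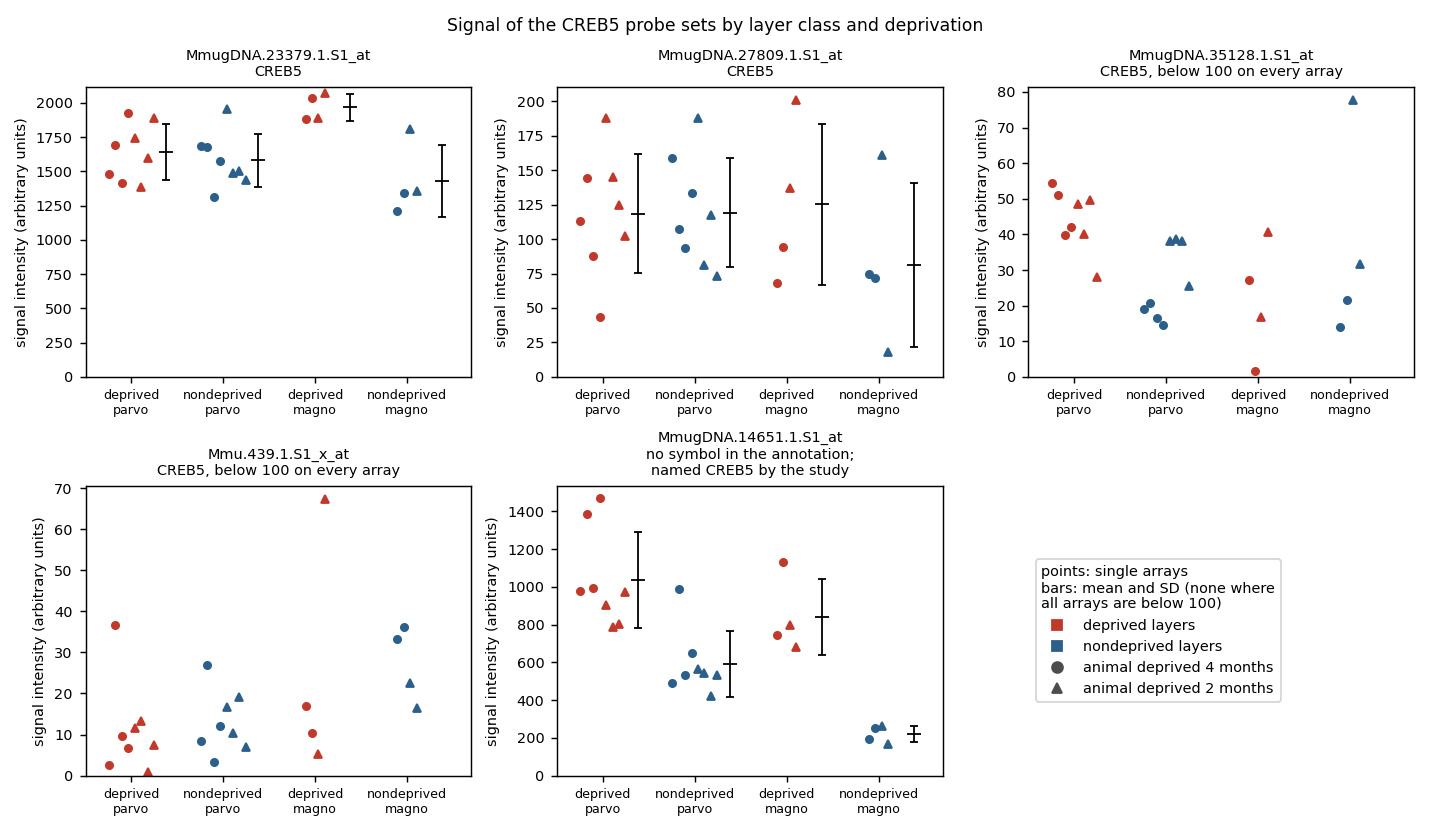
Signal intensity (linear, arbitrary units, a separate scale in each panel) of the 4 CREB5 probe sets and of MmugDNA.14651.1.S1_at in the 4 groups, with 1 point per array (circles 4 months, triangles 2 months) and the mean and SD beside them where arrays reach 100. MmugDNA.23379.1.S1_at lies between 1209 and 2072 everywhere, whereas MmugDNA.14651.1.S1_at lies at 170.2 to 263 in nondeprived magnocellular layers and at 682 to 1133 in deprived ones.

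By pattern over the 24 arrays within LGNs, the genes most like CREB5 MmugDNA.23379.1.S1_at among 14556 probe sets that carry a single symbol and average at least 100 were TMEFF1 (r = 0.87), PDCL (0.86), MACF1 (0.86), HIGD1A (0.84) and DDX47 (0.84). These are descriptions of these arrays, chosen as the highest of many.

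The coactivator CREBBP was the member whose deprived and nondeprived arrays did not overlap in either layer class. MmugDNA.24784.1.S1_at had 1140.4 to 1548 with a median of 1398 in deprived parvocellular layers, against 874 to 1122 with a median of 1042 in nondeprived parvocellular layers. In magnocellular layers it had 1308, 1384, 1544 and 1598 in deprived layers, against 897, 996, 1023 and 1089 in nondeprived layers. Across classes all 12 deprived arrays lay above all 12 nondeprived ones. Such separation in the same direction was found for 0.0930% of all probe sets in parvocellular layers, 2.78% in magnocellular layers and 0.00532% over both, and CREBBP was singled out after its values were seen. Neither layer class passed alone in limma, with a log2 difference of 0.42 (SE 0.11) and an adjusted p of 0.0635 for the parvocellular class, and 0.54 (SE 0.26) and 0.836 for the magnocellular class. The parvocellular call was made with signals under 50 set to 50 (adjusted p = 0.0439) or with the filter placed on a mean of 100 (0.0480), and the magnocellular value was 0.44 (0.842) without the array of the highest GAPDH ratio.

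CREBBP was higher in the deprived layers of each LGN. In the animal at 4 months the log2 difference was 0.49 ipsilaterally and 0.40 contralaterally in parvocellular layers, and 0.35 on either side in magnocellular layers. In the animal at 2 months it was 0.44 ipsilaterally and 0.34 contralaterally in parvocellular layers, and 0.83 ipsilaterally and 0.63 contralaterally in magnocellular layers. In a fit over all 24 arrays with layer class as a term, added after these values were seen, the log2 fold change was 0.46 (SE 0.09, adjusted p = 0.00411 in limma), and 1 of 21 members passed where 2.41% of all probe sets did (2 members had an unadjusted p below 0.05, where 15.2% of all did). The parvocellular minus the magnocellular effect was -0.12 (SE 0.19, adjusted p = 0.917 in limma, 95% interval -0.49 to 0.24). The call over both classes was lost with median scaling (0.38, adjusted p = 0.259) and in the animal at 4 months (0.41, adjusted p = 0.316) or 2 months (0.51, adjusted p = 0.204) alone. With the array of the highest GAPDH ratio, or any other array, left out, the adjusted p stayed between 0.00329 and 0.0110.

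The other CREBBP probe set, MmuSTS.3959.1.S1_at, reached 100 on 2 of 24 arrays, with 10.1 to 63.2 in deprived parvocellular layers, against 9.63 to 103 in nondeprived parvocellular layers. Its log2 fold change there was -0.68 (SE 0.49), and the within-LGN correlation of the 2 CREBBP probe sets was r = 0.01.

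**Figure D3:**
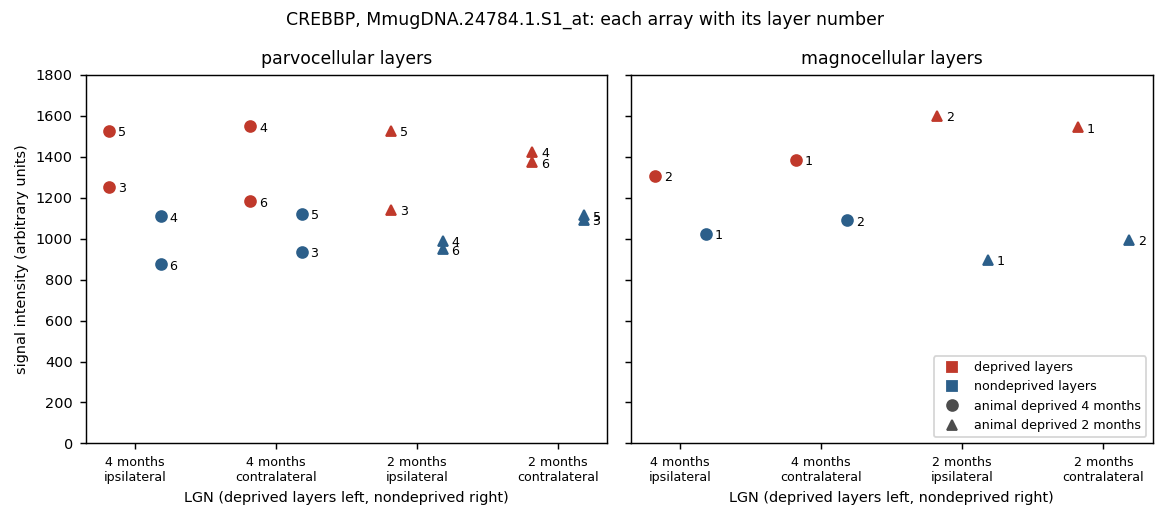
Signal intensity (linear, arbitrary units) of CREBBP MmugDNA.24784.1.S1_at in each LGN, with 1 point per array marked by its layer number, deprived layers left of nondeprived ones. In each of the 4 LGNs and in both layer classes every deprived layer (1140.4 to 1598) lies above every nondeprived layer (874 to 1122).

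Markers of glia and of GABAergic neurons were set beside CREBBP and MmugDNA.14651.1.S1_at. Of 5 astrocyte markers 4 had a positive log2 fold change in deprived parvocellular layers and 1, GFAP, passed in limma (log2 fold change 1.07, adjusted p = 0.0184), and the 5 summed to 27905 to 61589 in deprived parvocellular layers, against 28761 to 46235 in nondeprived ones. All 7 microglia markers were positive in that comparison, with none past the threshold in limma and none at an unadjusted p below 0.05. The 2 GABAergic markers in magnocellular layers summed to 18450 to 24464 in deprived layers, against 14408 to 16724 in nondeprived layers, without overlap. Singly, both genes overlapped, GAD1 at 16015 to 24134 against 14203 to 16324 and GAD2 at 269 to 2435 against 205 to 643. Neither gene passed for deprivation in limma, and 2.78% of all probe sets separated in this direction. Between layer classes GAD1 was lower in parvocellular layers (log2 fold change -0.56, adjusted p = 0.00213 in limma). GAD2 did not pass there (0.40, adjusted p = 0.376), nor did any tested marker of the other cell types. The median GAPDH ratio was 8.11 in deprived and 4.36 in nondeprived magnocellular layers. The part of these cells and of RNA length in the CREB-family values was not tested.

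CRTC1, the coactivator that calcineurin frees for entry into the nucleus, had 108 to 268 with a median of 162 in deprived parvocellular layers, against 88.9 to 271 with a median of 141 in nondeprived parvocellular layers. CRTC1 had 102 to 276 in deprived magnocellular layers, against 149 to 251 in nondeprived ones. The groups overlapped in both classes, and the log2 fold changes of 0.13 (SE 0.22) and -0.35 (SE 0.43) did not pass.

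Among the core factors, the deprived and nondeprived values of CREB1 overlapped in both layer classes. MmuSTS.3958.1.S1_at had 564 to 1871 with a median of 1391 in deprived parvocellular layers, against 999 to 1908 with the same median in nondeprived parvocellular layers, a log2 difference of -0.08 (SE 0.20, 95% interval -0.47 to 0.30, limma adjusted p = 0.929). The magnocellular values were 258, 755, 874 and 1535 in deprived layers, against 466, 518, 623 and 1332 in nondeprived layers (log2 fold change 0.10, SE 0.33). The second probe set, MmugDNA.26742.1.S1_s_at, reached 100 on 8 of 24 arrays and did not pass in either class.

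CREM, whose alternative products include activators and the cAMP-inducible repressor ICER, was read by 6 probe sets. Its probe set MmugDNA.25150.1.S1_at, had 1323 to 2574 with a median of 1779.5 in deprived parvocellular layers, against 1931 to 2752 with a median of 2251 in nondeprived parvocellular layers. The deprived values reached lower but overlapped, and the log2 difference of -0.26 (SE 0.11, negative in 3 of 4 LGNs) had an unadjusted p of 0.0230 and an adjusted p of 0.316 in limma. MmugDNA.34828.1.S1_s_at had 197 to 299 in deprived parvocellular layers, against 224 to 420.1 in nondeprived ones. It was lower in 4 of 4 LGNs, by -0.35 on the log2 scale (SE 0.15), at an unadjusted p of 0.0306 and an adjusted p of 0.354 in limma. The other 4 CREM probe sets had log2 fold changes between -0.05 and 0.08 in parvocellular layers, and in magnocellular layers the 6 ran between -1.05 and 0.44 with none past the threshold.

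ATF1, the closest relative of CREB1, gave contrary readings. Of its 4 tested probe sets MmugDNA.40145.1.S1_at had 786 to 2103 with a median of 984 in deprived parvocellular layers, against 561 to 1105 with a median of 950.5 in nondeprived parvocellular layers. The highest 3 deprived values all came from the animal at 4 months, and the log2 fold change was 0.35 (SE 0.16, unadjusted p = 0.0408, adjusted p = 0.403 in limma), positive in 3 of 4 LGNs. MmugDNA.33764.1.S1_at had 205 to 742 in deprived parvocellular layers, against 226 to 1281 in nondeprived ones (log2 fold change -0.29, SE 0.26). MmugDNA.27537.1.S1_at had 57.5 to 243 in deprived parvocellular layers, against 56.1 to 179.8 in nondeprived ones, higher in 4 of 4 LGNs but not past the threshold (0.48, SE 0.28, adjusted p = 0.564 in limma). The 2 untested ATF1 probe sets stayed within 1.77 to 73.5 and 5.41 to 74.8 over all arrays. Within LGNs, the log2 signals of MmugDNA.40145.1.S1_at and MmugDNA.33764.1.S1_at ran against each other over the 24 arrays, at r = -0.72 (r = -0.62 with the LGN means kept). MmugDNA.40145.1.S1_at ran with the other ATF1 probe sets, at r = 0.53 with MmugDNA.27537.1.S1_at and r = 0.58 with MmuSTS.511.1.S1_s_at, though MmuSTS.511.1.S1_s_at reached 100 on 1 of 24 arrays only. With the log2 GAPDH ratio MmugDNA.40145.1.S1_at had r = -0.54, MmugDNA.33764.1.S1_at 0.25, MmugDNA.27537.1.S1_at -0.30 and MmuSTS.511.1.S1_s_at -0.70. Without the array of the highest ratio these were -0.38, 0.05, -0.02 and -0.40. The part of RNA length in the ATF1 correlations was not tested.

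**Figure D4:**
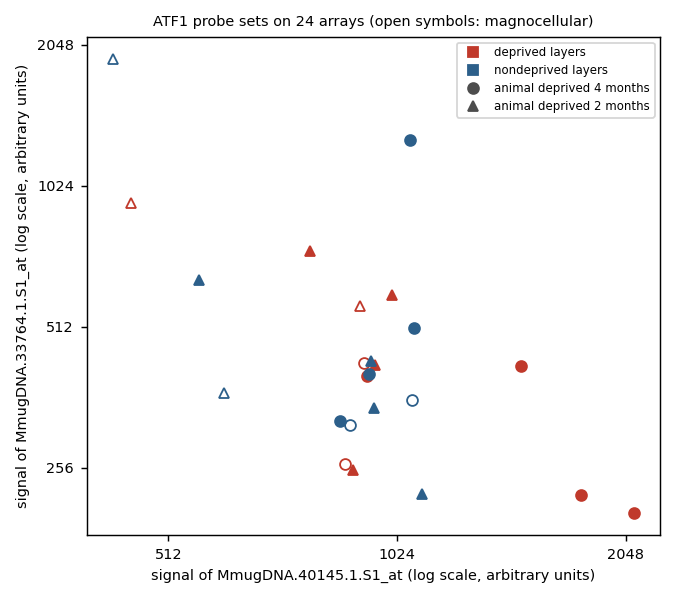
Signal of ATF1 MmugDNA.33764.1.S1_at against that of ATF1 MmugDNA.40145.1.S1_at on 24 arrays (both axes log scale, arbitrary units; colours give deprivation, shapes the animal, open symbols magnocellular layers). The points fall from upper left to lower right, with r = -0.62 on the log2 scale.

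Over all 25 pairs of tested probe sets that share a member gene, the within-LGN r ranged between -0.72 and 0.58 with a median of 0.06, 8 pairs were below 0 and 2 were above 0.5. Both pairs above 0.5 were of ATF1. The 15 CREM pairs ran between -0.53 and 0.38, and the pair for CREB3 had r = 0.47.

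ATF2, the stress-kinase target most like CREB5, had 832 to 3104 with a median of 1451 in deprived parvocellular layers, against 712 to 2216 with a median of 1496 in nondeprived parvocellular layers (log2 fold change 0.10, SE 0.18). ATF2 ran over 327 to 2591 in deprived magnocellular layers, against 653 to 1916 in nondeprived ones. Over all layers ATF2 averaged 1868 ± 562 in the animal at 4 months and 1114 ± 485 in that at 2 months (SD, n = 12 layers each), with overlapping ranges.

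ATF4, the factor of the amino acid and unfolded protein responses, had 7116 to 12167 with a median of 8103 in deprived parvocellular layers, against 7246 to 10541 with a median of 9166 in nondeprived parvocellular layers (log2 fold change -0.08, SE 0.12, adjusted p = 0.880 in limma). ATF4 ran over 7166 to 8616 in deprived magnocellular layers, against 8279 to 11235 in nondeprived ones, lower in 3 of 4 LGNs, and the log2 fold change of -0.34 (SE 0.24) did not pass (adjusted p = 0.840 in limma). CREB3 MmugDNA.4374.1.S1_at had 291 to 487 in deprived parvocellular layers, against 259 to 429 in nondeprived ones (log2 fold change 0.09, SE 0.14). Its magnocellular values were 188 to 445 in deprived layers, against 219 to 374 in nondeprived ones (0.03, SE 0.38). Its second probe set, MmuSTS.2053.1.S1_at, had log2 fold changes of -0.14 (SE 0.25) in parvocellular and -0.51 (SE 0.50) in magnocellular layers.

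The layer classes were then compared irrespective of deprivation. In parvocellular over magnocellular layers 1 of 21 members passed in limma, where 3.60% of all probe sets did, and 3 had an unadjusted p below 0.05, where 16.4% of all did. The one that passed was CREB1 MmuSTS.3958.1.S1_at, with 564 to 1908 and a median of 1391 in parvocellular layers, against 258 to 1535 and a median of 689 in magnocellular layers. The ranges overlapped, and the log2 difference was 0.91 (SE 0.24) with an adjusted p of 0.0296 in limma, positive in 3 of 4 LGNs. By layer, CREB1 averaged 857 ± 360 in layer 1, 734 ± 556 in layer 2, 1057 ± 179 in layer 3, 1393 ± 242 in layer 4, 1589.9 ± 215 in layer 5 and 1368 ± 566 in layer 6 (SD, n = 4 LGNs). The order of the means was thus layer 5, 4, 6, 3, 1 and 2, and neighbours in this order differed by less than the larger of their SDs.

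The CREB1 call was not firm. The lowest value, 258, came from the array with the GAPDH ratio of 50.8, and without that array the log2 fold change was 0.66 (adjusted p = 0.0829 in limma). Leaving out deprived magnocellular layer 1 of the contralateral LGN at 4 months (adjusted p = 0.0607), deprived parvocellular layer 6 of the same LGN (0.0501), or nondeprived magnocellular layer 1 ipsilaterally at 2 months (0.0636), layer 2 contralaterally at 2 months (0.0665) or layer 2 contralaterally at 4 months (0.0757) also ended it. The log2 fold change was 0.72 (adjusted p = 0.219) once the GAPDH ratio entered as a covariate. It was 0.45 (adjusted p = 0.513) in the animal at 4 months and 1.37 (adjusted p = 0.0878) in that at 2 months, each fitted alone. Over 24 arrays CREB1 correlated with the log2 GAPDH ratio at r = -0.48, and at r = -0.08 over 23 arrays without that of the highest ratio. The GAPDH ratio itself was 1.97 to 7.88 in parvocellular layers, against 3.74 to 50.8 in magnocellular layers. The second CREB1 probe set had a log2 fold change of 0.25 (SE 0.36).

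Of the other members, ATF1 MmugDNA.40145.1.S1_at came next, with 561 to 2103 and a median of 957 in parvocellular layers, against 433 to 1071 and a median of 881 in magnocellular layers (log2 fold change 0.50, SE 0.15, adjusted p = 0.0698 in limma, positive in 4 of 4 LGNs). Without the array of the highest GAPDH ratio it was 0.40 (adjusted p = 0.170 in limma). By layer it averaged 834 ± 153 in layer 1, 709 ± 315 in layer 2, 880.0 ± 219.8 in layer 3, 1232 ± 583 in layer 4, 1177 ± 415 in layer 5 and 1080.5 ± 302 in layer 6 (SD, n = 4), and neighbours in the order of these means did not differ beyond their spread. MmugDNA.14651.1.S1_at, the probe set outside the annotation, was also higher in parvocellular layers (0.85, SE 0.14, adjusted p = 0.000327 in limma, positive in 4 of 4 LGNs, but 0.0524 and 0.0795 in the animals at 4 and 2 months alone), whereas CREB5 MmugDNA.23379.1.S1_at differed by -0.06 (SE 0.10, 95% interval -0.25 to 0.13). CREBBP MmugDNA.24784.1.S1_at differed by -0.03 (SE 0.09, 95% interval -0.21 to 0.15) and CREM MmugDNA.25150.1.S1_at by 0.03 (SE 0.11, 95% interval -0.18 to 0.25). The median over the 21 members was 0.08, and that over all probe sets tested -0.03.

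**Figure D5:**
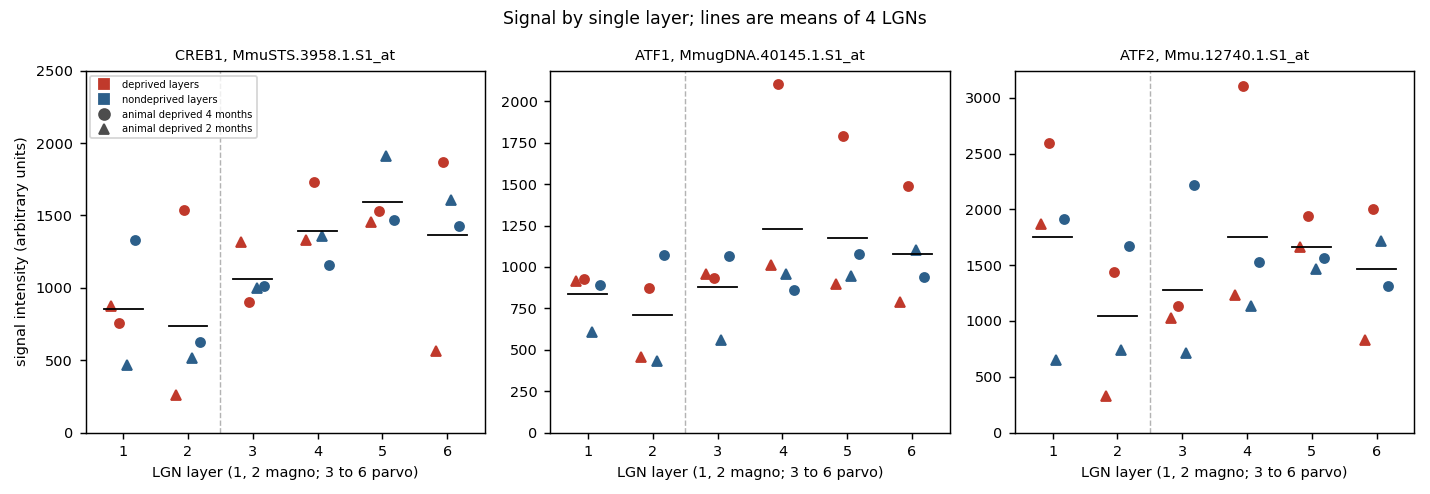
Signal intensity (linear, arbitrary units, a separate scale in each panel) of CREB1 MmuSTS.3958.1.S1_at, ATF1 MmugDNA.40145.1.S1_at and ATF2 in layers 1 to 6, with 1 point per LGN and layer and a line at the mean of 4 LGNs. The CREB1 means run between 734 in layer 2 and 1589.9 in layer 5, and single values of neighbouring layers overlap.

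Finer divisions gave no call in limma for any of the 21 members, as for 0.00% of all probe sets. Between outer (5 and 6) and inner (3 and 4) parvocellular layers 1 member had an unadjusted p below 0.05, the dim ATF1 MmuSTS.511.1.S1_s_at (log2 fold change -0.63, SE 0.29), where 8.98% of all probe sets did. Between crossed (4 and 6) and uncrossed (3 and 5) parvocellular layers it was CRTC1, with 0.43 (SE 0.19, higher in 4 of 4 LGNs), where 2.74% of all did. Between layer 2 and layer 1, where 3.04% of all did, it was ATF2, with a mean of 1044 ± 622 in layer 2 and 1756 ± 807 in layer 1 (SD, n = 4 each), lower in 4 of 4 LGNs by -0.84 on the log2 scale (SE 0.31, limma adjusted p = 1.00). ATF2 had its lowest value, 327, on the array with the GAPDH ratio of 50.8, which is from layer 2. Over 24 arrays ATF2 correlated with the log2 GAPDH ratio at r = -0.62, and at r = -0.32 over 23 arrays without that array. The median GAPDH ratio was 11.6 in layer 2 and 4.46 in layer 1. The part of RNA length in this ATF2 difference was not tested.

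The deprivation effect at 4 months minus that at 2 months compares 1 animal with 1 animal. In parvocellular layers the members with an unadjusted p below 0.05 were ATF1 MmugDNA.33764.1.S1_at (-1.15, SE 0.47) and ATF4 (-0.49, SE 0.21), each with an adjusted p of 0.973 in limma. They were 2 of 21, where 3.89% of all probe sets had such a p, and in magnocellular layers there were 0, where 1.24% of all did. For CREBBP MmugDNA.24784.1.S1_at the difference in parvocellular layers was 0.05 (SE 0.22, 95% interval -0.38 to 0.48) and for CREB5 MmugDNA.23379.1.S1_at it was 0.00 (SE 0.23, 95% interval -0.44 to 0.44).

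Genes around the family were followed in 4 lists with 1 probe set per gene, and the medians of their log2 fold changes are given beside those over all probe sets, -0.01 and 0.13 for deprivation in parvocellular and magnocellular layers and -0.03 between layer classes. Of 12 tested relatives and coactivators outside the member set, 0 passed in limma in either deprivation comparison or between layer classes. Their medians were -0.05, 0.09 and -0.13 in that sequence. The smallest unadjusted p values in parvocellular layers were those of CREB3L2 (-0.73) and CREB3L4 (0.29), with adjusted p = 0.711 and 0.808 in limma, and between layer classes those of CREBZF (-0.29) and CREB3L3 (0.40), with 0.224 and 0.444. In magnocellular layers the smallest among them were those of EP300, the paralogue of CREBBP (0.0812), and CRTC3 (0.0948). EP300 averaged 17245 in deprived and 12665 in nondeprived magnocellular layers (log2 fold change 0.45, adjusted p = 0.836 in limma), and 14047 in deprived and 13156 in nondeprived parvocellular layers (0.09, adjusted p = 0.819).

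Of 24 tested kinases, cyclases and phosphodiesterases upstream of CREB, 0 passed for deprivation in either class, and 4 had an unadjusted p below 0.05 in parvocellular layers, with medians of 0.00, -0.07 and 0.07. The smallest unadjusted p values for deprivation were those of SIK2 (-0.29, adjusted p = 0.325 in limma) and ADCY3 (-0.51, 0.336) in parvocellular layers, and RPS6KA2 (-0.47) and ADCY1 (0.66) in magnocellular layers (0.837 each). Between layer classes 2 were higher in parvocellular layers and 0 were lower, where 3.60% of all probe sets passed in either direction. RPS6KA5, the kinase MSK1 that phosphorylates CREB in the nucleus, averaged 902 ± 302 in parvocellular and 479 ± 211 in magnocellular layers (SD, n = 16 and 8), and its log2 difference of 0.96 (limma adjusted p = 8.51e-06) passed in each of 12 alternatives and 24 fits with 1 array left out. RPS6KA2, the kinase RSK3, averaged 3499 ± 491 in parvocellular and 2680.1 ± 814 in magnocellular layers (0.43, adjusted p = 0.0325 in limma), and its call was lost in 6 of 12 alternatives and in 10 of 24 fits with 1 array left out (adjusted p up to 0.0930), among them that without the array of the highest GAPDH ratio (0.35, 0.0819).

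Of 20 tested genes with promoters known to bind CREB, 0 passed for deprivation in either class alone, with medians of -0.04, 0.07 and 0.12. In the later fit over both classes 1 of them passed as higher and 0 as lower, where 2.41% of all probe sets passed. In that fit 4 had an unadjusted p below 0.05 in limma, where 15.2% of all did. In parvocellular layers CRH, corticotropin-releasing hormone, came closest, at 1565 to 2331 in deprived against 873 to 1779 in nondeprived layers (0.45, adjusted p = 0.0576 in limma), then BCL2 (0.90, 0.231). The study reports the opposite direction for CRH, lower in deprived parvocellular layers by array, qRT-PCR and in situ hybridization. CRH was read here by 1 probe set, which was not compared with the one the study used. In magnocellular layers NR4A1, an immediate early gene, came closest, at 125 to 423 in deprived against 78.5 to 177 in nondeprived layers (0.90, 0.836), then CRH (0.54, 0.836). Between layer classes FOS, also an immediate early gene, was higher in parvocellular layers, at 373 to 3466 there against 309 to 639 in magnocellular layers (1.03, adjusted p = 0.00112 in limma), and BDNF, a neurotrophin, was lower, at 26.3 to 157 in parvocellular against 82.9 to 402 in magnocellular layers (-1.24, adjusted p = 0.0388 in limma). These 2 of 20 genes passed between layer classes, where 3.60% of all probe sets did. The FOS call was lost in 2 of 12 alternatives and the BDNF call in 7 of 11. FOS lost it in the animal at 4 months alone (0.46, adjusted p = 0.350 in limma) and without the LGN block (1.03, 0.185). Its log2 fold change ran between 0.46 and 1.61 over the alternatives. With 1 array left out the FOS call held in 24 of 24 fits, and the BDNF call was lost in 14 of 24, among them that without the array of the highest GAPDH ratio (-1.02, adjusted p = 0.108 in limma).

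Of 9 tested stress-response targets of ATF4, 1 rose and 1 fell in deprived parvocellular layers, where 0.970% of all probe sets passed. In magnocellular layers and between layer classes 0 passed, and the medians were -0.04, 0.05 and -0.21. The later fit over both classes also had 1 past the threshold as higher and 1 as lower, where 2.41% of all passed. ASNS, which makes asparagine, was lower, at 3627 to 5134 in deprived against 5442 to 7470.2 in nondeprived parvocellular layers, without overlap, as for 0.0718% of all probe sets in that direction (-0.49, SE 0.09, adjusted p = 0.00999 in limma). SLC7A11, the cystine-glutamate exchanger, was higher, at 1650.3 to 2812 in deprived against 1097 to 1954 in nondeprived parvocellular layers (0.52, SE 0.12, adjusted p = 0.0389 in limma). The 2 targets thus moved in opposite directions, and of 13 alternatives the ASNS call was lost in 5 and the SLC7A11 call in 8. With 1 array left out the ASNS call held in 24 of 24 fits and the SLC7A11 call was lost in 13 of 24.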

How the data were processed

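The authors captured each layer by laser, pooled sections, amplified the RNA in 2 rounds, hybridized it to the Rhesus Macaque Genome Array and computed signals with GCOS. The deposited values are linear signal intensities per probe set, scaled by the authors to a common trimmed mean (2% at each end). Gene symbols are those of the platform annotation, in which 24956 probe sets carry a single symbol, 361 carry more than 1 and 27449 carry no symbol, beside 99 controls. Signals under 1 were set to 1 before log2, and probe sets with 100 or more on at least 1 of 24 arrays were tested (37623). Tests used limma 3.58.1 in R 4.3.3 (lmFit, eBayes with trend) with the LGN as a block and Benjamini-Hochberg adjustment over all probe sets tested, at a threshold of 0.05. All but the fit over both layer classes were tested on simulated data. P-values measure the spread between layers of the LGNs of 2 animals, 1 for each duration, not between animals. The number of arrays limits the precision.

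The named probe sets are all members, and of each list the genes past the threshold or the 2 with the smallest unadjusted p. List genes were not named from the fit over both layer classes. Members, lists and tests were chosen with earlier results of these data known. The fit over both layer classes and the use of MmugDNA.14651.1.S1_at were added after the data were seen. Alternatives were quantile normalization, median scaling, an offset of 16 before log2, a floor of 50, a filter on the mean signal (100) or none, eBayes without trend, other blocks, the GAPDH ratio as a covariate, each animal alone and each array left out. Whether layer numbers pair the samples beyond the LGN was not settled. Same-numbered layers of the LGNs of an animal had residual correlations of -0.19 to 0.31. These residuals kept the difference between the LGNs, so they cannot decide it. No probe sequence was printed.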

Additional observations from a re-analysis of the deposited data

Results flagged for a closer look

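Of 88 groups examined (22 probe sets in 4 groups), 13 held 1 array far from the rest of its group by Dixon's test on the linear signals. Chance gives about 1 in 20 for independent normal values. The groups mix layers, LGNs and animals, so that rate is a rough guide only. In layer 1 of the contralateral LGN at 2 months (deprived magnocellular) CREM MmugDNA.34749.1.S1_at stood at 475 and CREM MmugDNA.42086.1.S1_at at 102, both high, and in layer 1 of the ipsilateral LGN at 2 months (nondeprived magnocellular) CREM MmugDNA.34749.1.S1_at stood low at 221. In layer 2 of the ipsilateral LGN at 2 months (deprived magnocellular), the array with the GAPDH ratio of 50.8, ATF1 MmugDNA.40145.1.S1_at stood low at 458 and CRTC1 MmugDNA.27084.1.S1_at high at 276.

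In nondeprived layers of contralateral LGNs ATF1 MmugDNA.33764.1.S1_at stood high at 1905 (layer 2, 2 months) and 1281 (layer 3, 4 months), ATF1 MmuSTS.511.1.S1_s_at high at 98.0 (layer 3, 4 months), ATF1 MmugDNA.40145.1.S1_at low at 561 (layer 3, 2 months) and CREM MmuSTS.1884.1.S1_at high at 295 (layer 3, 2 months). MmugDNA.14651.1.S1_at, the probe set that the study names CREB5, stood high at 990.1 in layer 5, nondeprived, on the contralateral side at 4 months. In deprived parvocellular layers ATF1 MmuSTS.511.1.S1_s_at stood high at 149.6 (contralateral layer 4, 4 months) and CREB1 MmugDNA.26742.1.S1_s_at low at 7.97 (ipsilateral layer 3, 2 months).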

How the results depend on the processing

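For single probe sets no direction turned round in 246 values under alternatives, of which 195 also kept the side of the threshold, or in 480 with 1 array left out, of which 436 did. These covered chosen probe sets and comparisons, MmugDNA.14651.1.S1_at among them. The choice left out most members and those with weak effects, so a kept direction does not extend to them. Of the counts of called members, 102 of 115 under alternatives and 233 of 240 with 1 array left out stayed the same. The count of member probe sets past the threshold between layer classes (1 in the fit as reported) was 0 with quantile normalization, median scaling, eBayes without a trend, the GAPDH ratio as a covariate, or the animal at 4 or 2 months alone, and also 0 with no replicate block, where CREB1 had a log2 fold change of 0.91 (adjusted p = 0.0582). It was 2 with a mean signal of 100 or more, and 0 to 2 with 1 array left out. For deprivation in parvocellular layers the count of 0 became 1, CREBBP MmugDNA.24784.1.S1_at, with signals under 50 set to 50 or a mean signal of 100 or more. For deprivation over both layer classes the count of 1 became 0 with median scaling and in the animal at 4 or 2 months alone. The cause of these changes was not tested. The probe sets called for deprivation in parvocellular layers over the whole array numbered 365 as reported, 598 of 23624 with a mean signal of 100 or more, 133 with a block for each layer number of an animal, 28 with no replicate block, 25 with median scaling, 15 without a trend, and 1 and 7 in the animals at 4 and 2 months alone. Between layer classes they numbered 1355 as reported, 789 with median scaling, 624 with no replicate block, 368 at 4 months alone and 222 at 2 months alone. For deprivation over both classes they numbered 907 as reported, 576 without a trend, 390 with no replicate block, 128 with median scaling, and 1 and 10 in the animals at 4 and 2 months alone. Layer 2 against layer 1 and the contrast of durations were not run in each animal alone, which leaves no residual degrees of freedom or no contrast, and the latter was not run without the block. Signals below 100, as for 4 member probe sets throughout, lie under the study's minimum, and no effect was read from them. Having 1 animal for each duration limits every statement to these LGNs.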
